A study of Homo sapiens with 10 samples.

Results

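The HOX genes are described here in GIST-T1, an established human cell line that comes from a metastasis of a gastrointestinal stromal tumour (GIST) with intact succinate dehydrogenase (SDH). Members were all genes whose symbol is HOXA, HOXB, HOXC or HOXD followed by a number, which gave 39 of the 58381 gene rows: 11 in the HOXA cluster, 10 in HOXB, 9 in HOXC and 9 in HOXD. Polyadenylated RNA was sequenced in 10 libraries of 5 groups. The control group carries the wild-type genotype, and the derivative lines InsE, InsF, InsG and InsH each carry a disrupted CTCF insulator, with 2 libraries per group and no treatment named. CTCF is the DNA-binding protein found at many boundaries between chromosome loops. The labels name neither the site edited in each line nor whether a line is 1 clone, and they leave unsaid if a group's libraries are separate cultures. The p-values therefore cover only the scatter between these libraries, possibly a technical one. That scatter was unequal. A chi-square per degree of freedom is near 1 for counting error alone. It was 1.39 in the control pair and 6.60 to 7.70 in the line pairs. The fit used below shares 1 estimate of the spread per gene among all groups. The control libraries held 30.8 and 20.1 M expected counts (M, mega) and the line libraries 9.40 to 42.5 M. The labelled tumour type was checked with 10 markers of GIST and interstitial cells of Cajal, KIT and ANO1 among them, and all 10 reached 1 TPM in a library. TPM is a transcript level corrected for gene length and library size.

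HOX genes encode homeodomain transcription factors that assign positional identity along the head-to-tail axis of the embryo. Each cluster lists its genes in the order of their paralogue numbers, and genes with low numbers are generally used towards the head and those with high numbers towards the tail, the limb ends and the hindgut. HOX proteins bind DNA together with PBX and MEIS cofactors, Polycomb complexes keep silent HOX genes off, MLL-type methyltransferases keep active ones on, and CTCF sites divide the clusters into domains.

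The results below turn on the 4 genes with paralogue number 13, and their homeoboxes are shown to make plain how far these relatives differ in sequence. The homeobox is the stretch that codes for the DNA-binding homeodomain. Each was taken from the longest GENCODE 29 transcript that holds it, is 180 bases long and reads 5′ to 3′, with capitals marking codons 48 to 53, a conserved run within the DNA-recognition helix.
HOXA13: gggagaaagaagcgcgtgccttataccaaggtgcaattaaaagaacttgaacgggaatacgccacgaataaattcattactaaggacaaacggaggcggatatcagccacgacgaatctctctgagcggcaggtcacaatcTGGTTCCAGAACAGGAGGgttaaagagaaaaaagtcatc
HOXB13: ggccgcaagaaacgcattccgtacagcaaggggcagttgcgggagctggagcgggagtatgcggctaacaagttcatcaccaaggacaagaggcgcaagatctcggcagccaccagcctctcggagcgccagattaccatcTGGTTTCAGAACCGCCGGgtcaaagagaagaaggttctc
HOXC13: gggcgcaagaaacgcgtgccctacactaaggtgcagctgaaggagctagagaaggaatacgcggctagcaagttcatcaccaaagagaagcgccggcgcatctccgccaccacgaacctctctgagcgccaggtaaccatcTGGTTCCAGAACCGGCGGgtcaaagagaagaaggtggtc
HOXD13: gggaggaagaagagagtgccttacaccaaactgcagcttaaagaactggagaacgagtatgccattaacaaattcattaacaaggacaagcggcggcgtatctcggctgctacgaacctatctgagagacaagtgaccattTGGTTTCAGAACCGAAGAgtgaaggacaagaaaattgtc
Identity over the homeobox ran from 69.4% for HOXA13 with HOXB13 to 80.0% for HOXB13 with HOXC13. Over the whole transcripts, the longest identical run shared by any pair of these 4 genes was 20 bases. The median homeobox identity was 81.7% over the 42 pairs of genes with the same number and 60.6% over the other 699 pairs. The deposited counts of HOXA13, HOXB13 and HOXD13 were whole numbers in all 10 libraries, as were those of 22 of the 39 HOX genes, so their counts show no read divided between loci.

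In the control line a small number of genes supplied most HOX transcript. HOXC10, known for lumbar and hindlimb patterning, had the highest level at 97.9 ± 0.799 TPM (SD, n = 2), and HOXA11, which acts in the limb and the uterus, was close behind at 96.7 ± 2.32 TPM. Their ranges did touch, since single libraries held 98.5 and 97.3 TPM of HOXC10 and 95.1 and 98.4 TPM of HOXA11, so the order of these neighbours is not separated by the spread. HOXD8 followed at 43.5 ± 1.09 TPM, then HOXD1 at 29.3 ± 0.127, HOXD4 at 26.9 ± 0.325 and HOXD13 at 23.1 ± 0.530. In all, 15 of the 39 genes reached 5 TPM in control. HOXA11 supplied 83.8% of HOXA TPM and HOXC10 76.8% of HOXC TPM, while no such single gene led HOXB, where HOXB2 supplied 33.5%, or HOXD, where HOXD8 supplied 30.6%. HOXB2 is known from hindbrain segmentation, and HOXD8 is a central member of its cluster.

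**Figure D1:**
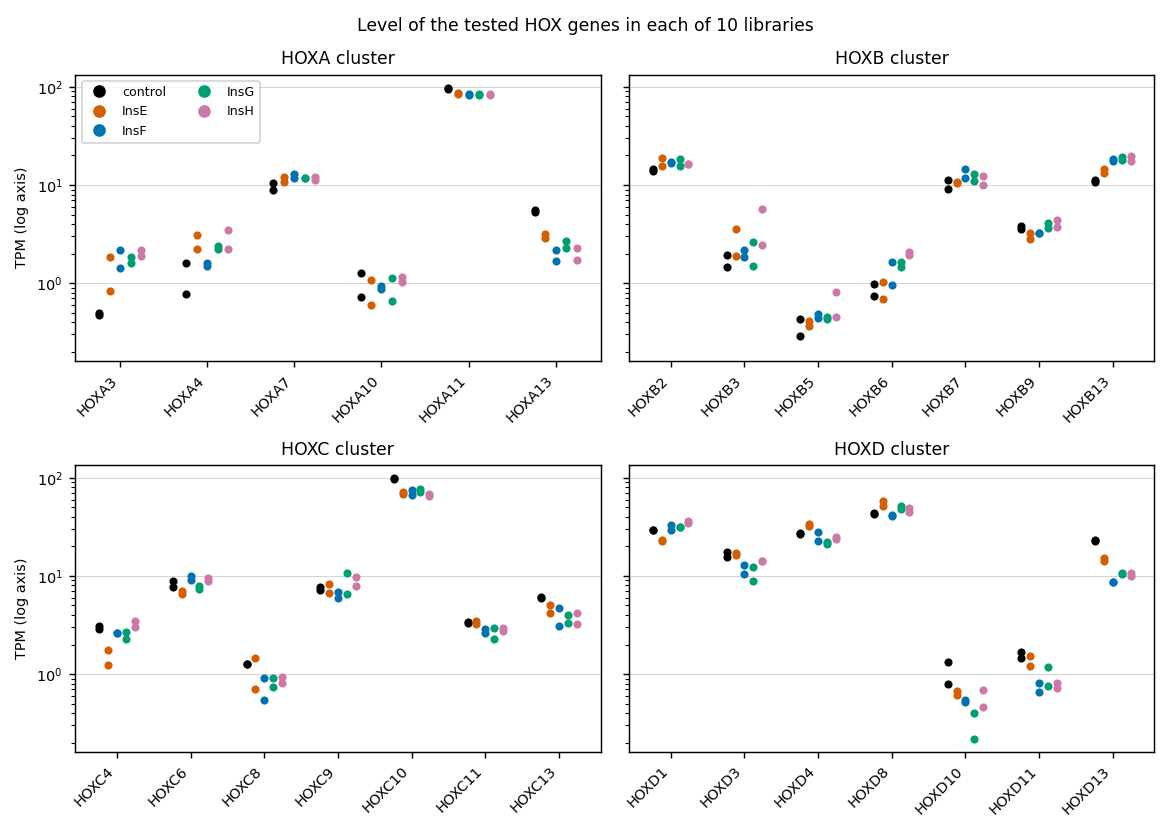
TPM on a log axis for 27 HOX genes that passed the expression filter, with a panel per cluster and a point per library, coloured by group. HOXC10 and HOXA11 lie near 100 TPM in control and lower in every line library, HOXA13 and HOXD13 points of the lines lie below both control points, and HOXB13 points of the lines lie above them.

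Members too low to test numbered 11. HOXB1 had no count in any library, where the floor of 3 counts over all libraries corresponds to 0.0134 CPM (counts scaled by library size, per M counts). HOXA2, HOXA5, HOXA6, HOXA9, HOXB4, HOXB8, HOXC5, HOXC12, HOXD9 and HOXD12 had totals of 5 to 65 counts over the 10 libraries. HOXA2, a hindbrain and neural crest gene, had the highest total of them, with 6 counts in the control pair and 59 in the 8 line libraries. That is 0.122 CPM (exact 95% Poisson interval 0.0447 to 0.265) in control and 0.340 CPM (0.258 to 0.438) in the lines. In control alone HOXA6 and HOXB8 had more, at 7 counts each. HOXD12 had no count in control and 5 in the lines. These intervals cover counting error only. HOXA9, a posterior gene well known from leukaemia, had only 3 counts in control, and of the genes from HOXA5 to HOXA9 only HOXA7, at 9.61 ± 1.09 TPM in control, passed the expression filter.

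Summed over all 39 genes, HOX transcript was 427.4 and 427.0 TPM in the control libraries and 376.5 to 396.8 TPM in the line libraries, so every line library lay below both controls. Among the clusters with a lower mean sum in the lines, HOXC had the widest relative gap. It held 127.3 and 127.6 TPM in control against 93.1 to 105.2 TPM in the lines, a ratio of means of 0.762. HOXB was the only cluster with a higher mean sum, at 43.1 and 41.4 TPM against 45.9 to 59.9, a ratio of 1.29. The HOXA sums did not overlap, at 113.9 and 117.0 TPM against 102.0 to 106.6. The HOXD sums did overlap, at 143.2 and 140.99 TPM against 117.4 to 145.6. These sums are descriptions without a test. By paralogue number, genes 10 to 13 held 245.3 and 249.0 TPM in control and 190.2 to 201.7 TPM in the lines, whereas genes 1 to 4 held 94.1 and 93.9 TPM in control, within the 90.4 to 108.0 TPM of the lines. Genes 5 to 9 held 87.95 and 84.1 TPM in control and 88.08 to 100.8 TPM in the lines. Every line library lay above both controls in TPM, but InsF replicate 2, at 88.08, only narrowly. HOXD8, the most abundant of these genes, was lower in InsF, at 35.2 and 34.4 CPM (counts scaled by library size) against 39.2 and 37.5 in control. The band was not summed in CPM.

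**Figure D2:**
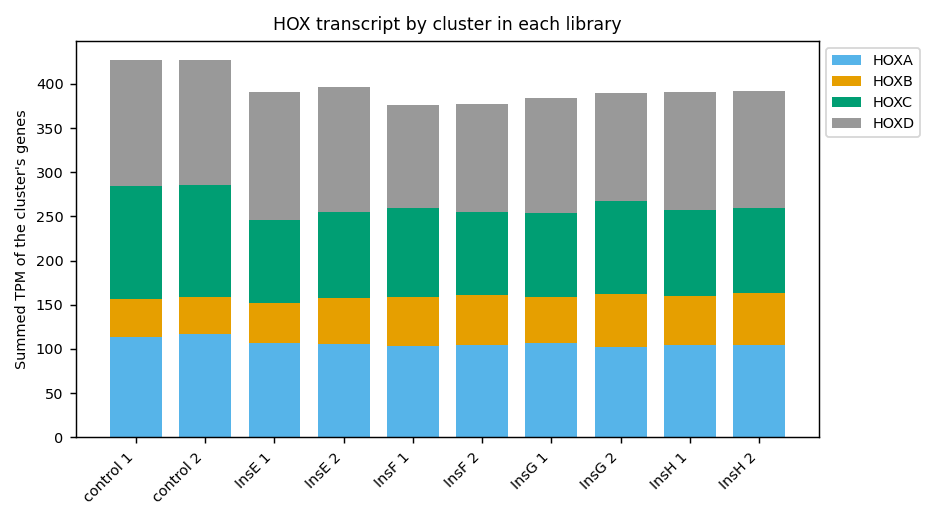
Stacked bars of summed TPM per library, with a colour per cluster and both libraries of each group side by side. The 2 control bars reach 427.4 and 427.0 TPM and the 8 line bars 376.5 to 396.8 TPM, with a shorter HOXC segment and a taller HOXB segment in the lines.

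Change against control was read from an edgeR quasi-likelihood fit of all 15554 genes past the expression filter, of which 28 were HOX genes, 7 per cluster. A gene is called where its Benjamini-Hochberg adjusted p over all tested genes is below 0.05. For the mean of the 4 lines against control, 12 of the 28 HOX genes were called, 5 higher and 7 lower. That is 42.9%, where 27.6% of all tested genes were called, 13.1% higher and 14.5% lower. Their median log2 change was -0.08, against 0.01 over all tested genes. Higher ones included HOXA3, HOXA7, HOXB6 and HOXB13, and lower were HOXA11, HOXA13, HOXC10, HOXC13, HOXD10, HOXD11 and HOXD13. Of the 10 tested genes with numbers 10 to 13, 8 were called, and HOXB13 was the only one of these called higher; their median log2 change was -0.70. Of the 9 tested genes numbered 5 to 9, 2 were called, both higher, with a median of 0.17. These bands were chosen after the values were seen. Without control replicate 1 the calls fell from 12 to 6, and without control replicate 2 to 5.

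**Figure D3:**
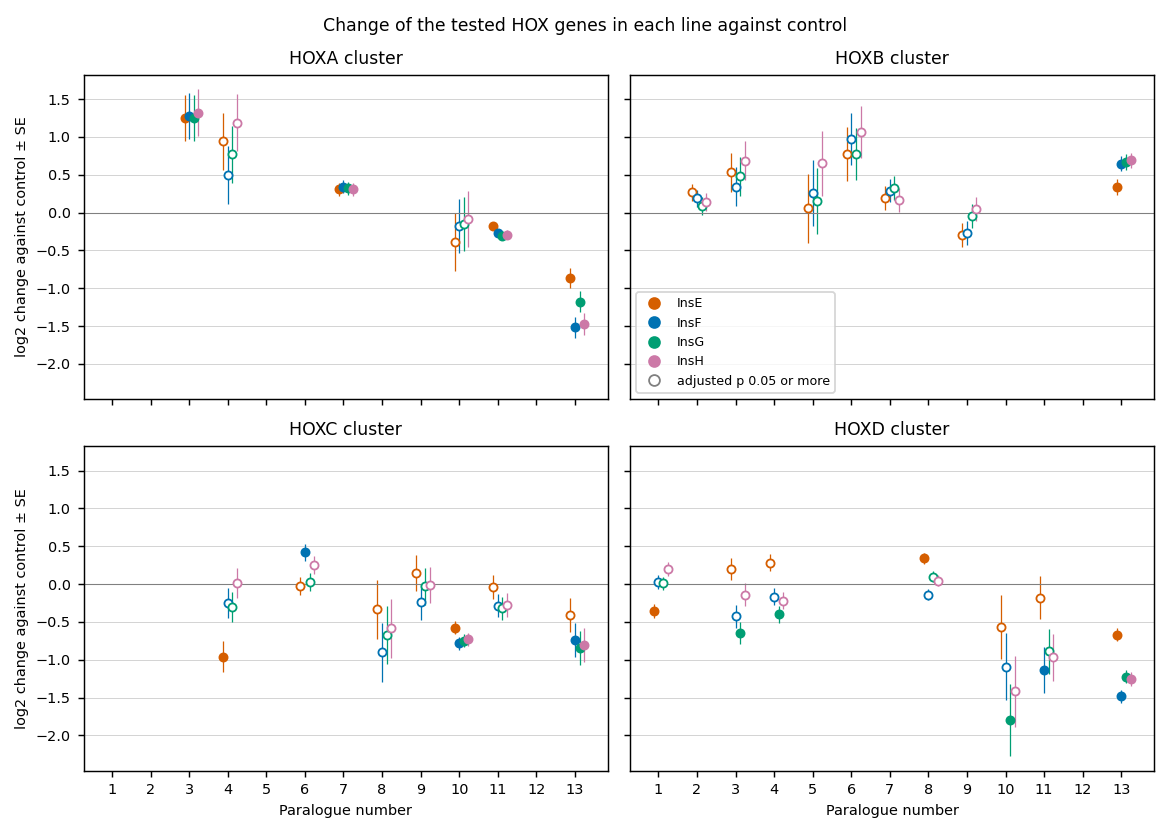
Log2 change against control with its SE, by paralogue number, for 27 tested HOX genes, with a panel per cluster and a colour per line; filled points passed the adjusted p threshold of 0.05 and open points did not. Points for HOXA13 run from -1.52 to -0.87 and for HOXD13 from -1.48 to -0.67, HOXB13 lies between 0.34 and 0.69, and HOXA3 lies between 1.25 and 1.32.

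Each line was also compared with control by itself, with both control libraries shared by the 4 comparisons. For InsE 10 HOX genes were called where 23.2% of all tested genes were, 4 higher (10.8% of all genes) and 6 lower (12.4%). For InsF 11 were called (22.3%), 5 higher (10.9%) and 6 lower (11.3%). For InsG 11 were called (20.3%), 3 higher (9.86%) and 8 lower (10.5%). For InsH 8 were called (18.4%), 3 higher (8.95%) and 5 lower (9.46%). Lower calls outnumbered higher ones in each line in this fit. That balance did not hold in InsH with the replicate block, with 8 higher and 5 lower, or without TMM scaling, with 6 higher and 5 lower, and without TMM scaling InsE and InsF had 5 of each. Leaving out control replicate 1 gave 4, 5, 5 and 5 calls, and leaving out control replicate 2 gave 4 in each line. Without InsE replicate 1 the InsE count was 5, without InsG replicate 1 the InsG count was 6, and the InsF count was 5 without InsF replicate 1 and 7 without InsF replicate 2. Across all 10 libraries, 7 tested HOX genes had all 8 line values in CPM above both controls, where 13.3% of all tested genes did, and 7 had all 8 below, where 14.7% did.

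The cell markers also moved. The summed level of the 10 GIST and interstitial cell markers was 3631 to 3645 TPM in control and 2730 to 2985 TPM in the lines, and that of 8 fibroblast markers 1244 to 1259 TPM in control and 1319 to 1641 TPM in the lines. Members of both lists differed in direction. Mean KIT fell from 719.8 TPM in control to 365.9 to 479.0 in the lines, whereas PDGFRA and GPR20 were above control in InsF, InsG and InsH and below it in InsE. Mean LUM rose from 421.4 TPM to 749.3 to 844.5 in the lines, whereas THY1 fell from 812.3 TPM to 558.1 to 717.3. The sums of 8 epithelial markers, KRT18 the highest, were 268.6 to 277.8 TPM in control and 194.3 to 255.2 in the lines, with CDH1, CLDN3 and KRT19 under 0.1 TPM everywhere. Those of 8 neural markers, TUBB3 the highest, were 52.03 to 52.2 TPM in control and 29.5 to 48.1 in the lines, with ELAVL4, S100B and SOX10 under 0.1 TPM. Smooth muscle sums overlapped, at 161.5 to 164.3 and 137.7 to 180.2 TPM. FAP was under 0.1 TPM everywhere, as were PTPRC of the leukocyte list and PECAM1 of the endothelial list. Endothelial sums stayed between 0.340 and 1.84 TPM and leukocyte sums between 3.94 and 6.67 TPM. The part of these marker changes in the HOX results was not tested. In bulk RNA, fewer cells with a transcript and less of it per cell cannot be told apart.

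HOXD13 and HOXA13, which pattern the digits, the hindgut and the urogenital tract, fell in all 4 lines. HOXD13 (GENCODE 29 on hg38, chr2:176092891-176095938, plus strand) measured 31.4 and 32.3 CPM in the control libraries, against 19.02 and 21.6 for InsE, 11.2 and 11.6 for InsF, 13.5 and 13.8 for InsG, and 12.7 and 14.2 for InsH. All 8 line libraries were below both controls, and InsE lay between control and the other lines. The mean log2 change was -1.16 ± 0.06 (SE; edgeR adjusted p = 2.86e-06), a 2.23-fold lower level. InsE gave -0.67, InsF -1.48, InsG -1.22 and InsH -1.25, with adjusted p-values of 0.000568, 4.85e-06, 2.04e-05 and 2.12e-05.

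HOXA13 (chr7:27193503-27200106, minus strand) measured 17.1 and 18.2 CPM in the control libraries, against 10.2 and 8.78 for InsE, 6.66 and 5.45 for InsF, 8.11 and 7.25 for InsG, and 6.903 and 5.55 for InsH. Again every line library lay below both controls, and the InsE libraries were the highest of the lines. The mean log2 change was -1.26 ± 0.10 (SE; edgeR adjusted p = 2.28e-05), a 2.39-fold lower level, and the lines gave -0.87, -1.52, -1.18 and -1.47 for InsE, InsF, InsG and InsH. Both genes kept their calls, in each line and in the mean, under every alternative processing run and without any single library. HOXA13 shares 1.69% of its exon bases with HOTTIP on the opposite strand, and HOXD13 shares none with an annotated neighbour.

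The promoters of these genes are printed because both fell together. They are the 250 bases before the RefSeq start site (GRCh38.p14), written 5′ to 3′ on the gene's strand, chr7:27200092-27200341 on the minus strand for HOXA13 and chr2:176092471-176092720 on the plus strand for HOXD13. Capitals mark matches, on either strand, to TATAAA (the TATA box), CCAAT (the CCAAT box), CCCTC (the letters CTCF is named for) and TTTATG (a core of CDX sites); a TATAAA match may overlap another.
HOXA13: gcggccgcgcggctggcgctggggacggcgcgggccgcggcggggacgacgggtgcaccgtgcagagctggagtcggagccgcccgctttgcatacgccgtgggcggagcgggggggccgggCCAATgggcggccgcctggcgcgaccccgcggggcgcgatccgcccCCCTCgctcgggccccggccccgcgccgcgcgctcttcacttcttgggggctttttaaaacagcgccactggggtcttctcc
HOXD13: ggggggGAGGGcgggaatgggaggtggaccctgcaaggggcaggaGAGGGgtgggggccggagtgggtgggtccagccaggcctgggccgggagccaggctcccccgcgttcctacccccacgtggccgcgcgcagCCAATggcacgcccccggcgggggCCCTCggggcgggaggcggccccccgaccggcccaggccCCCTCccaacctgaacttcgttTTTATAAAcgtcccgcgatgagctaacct
HOXA13 holds 1 CCAAT match, starting at base -128 from the start site, and 1 CCCTC match at -82. HOXD13 holds 1 CCAAT match at -114, 4 CCCTC matches and 2 overlapping TATAAA matches at -29 and -27. Neither window holds TTTATG, or TAAT, the core of homeodomain sites. Among all 35116 promoters of this length in the table, 32.0% hold CCAAT, 66.6% CCCTC, 10.7% TATAAA, 9.64% TTTATG and 47.4% TAAT, so the CCCTC match is the rule. The windows hold 40 CpG in HOXA13 and 21 in HOXD13, where the median of all promoters is 11. The table holds promoters of 20 of the 39 HOX genes, and matched letters are a description, not a site.

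The remaining genes numbered 13 moved in opposite directions. HOXC13 (chr12:53938765-53946544, plus strand), known for hair and nail formation, measured 9.26 and 8.93 CPM in the control libraries, against 6.24 and 7.72 for InsE, 4.35 and 6.86 for InsF, 4.63 and 5.73 for InsG, and 4.49 and 6.13 for InsH. All line libraries lay below both controls, though replicates of a line differed widely. Its mean log2 change was -0.70 ± 0.17 (SE; edgeR adjusted p = 0.0125). The call was lost without control replicate 1 (edgeR adjusted p = 0.134), without control replicate 2 (0.0904) and on the TPM scale with limma (adjusted p of 0.0555 with a pseudocount of 1 and 0.0614 with 0.1). InsF, InsG and InsH gave -0.74, -0.85 and -0.81 and passed the threshold, and InsE gave -0.41 with an edgeR adjusted p of 0.214.

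HOXB13 (chr17:48724763-48729178, minus strand), a gene of the prostate and the tail end of the embryo, rose. It measured 23.6 and 24.8 CPM in the control libraries, against 28.97 and 33.1 for InsE, 36.5 and 39.6 for InsF, 36.5 and 41.1 for InsG, and 36.3 and 42.3 for InsH. Every line library lay above both controls, with InsE lowest among the lines. The mean log2 change was 0.59 ± 0.08 (SE; edgeR adjusted p = 0.000812), or 1.502-fold. InsE gave 0.34, InsF 0.65, InsG 0.67 and InsH 0.69. The InsE call (edgeR adjusted p = 0.0416) was lost without control replicate 1 (0.218), control replicate 2 (0.114), InsE replicate 1 (0.0535) or InsE replicate 2 (0.149), with DESeq2 (0.0683) and with limma (0.0624 and 0.0596 with pseudocounts of 1 and 0.1). The other 3 lines kept their calls under every alternative. HOXB13 overlaps no annotated gene in its exons.

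**Figure D4:**
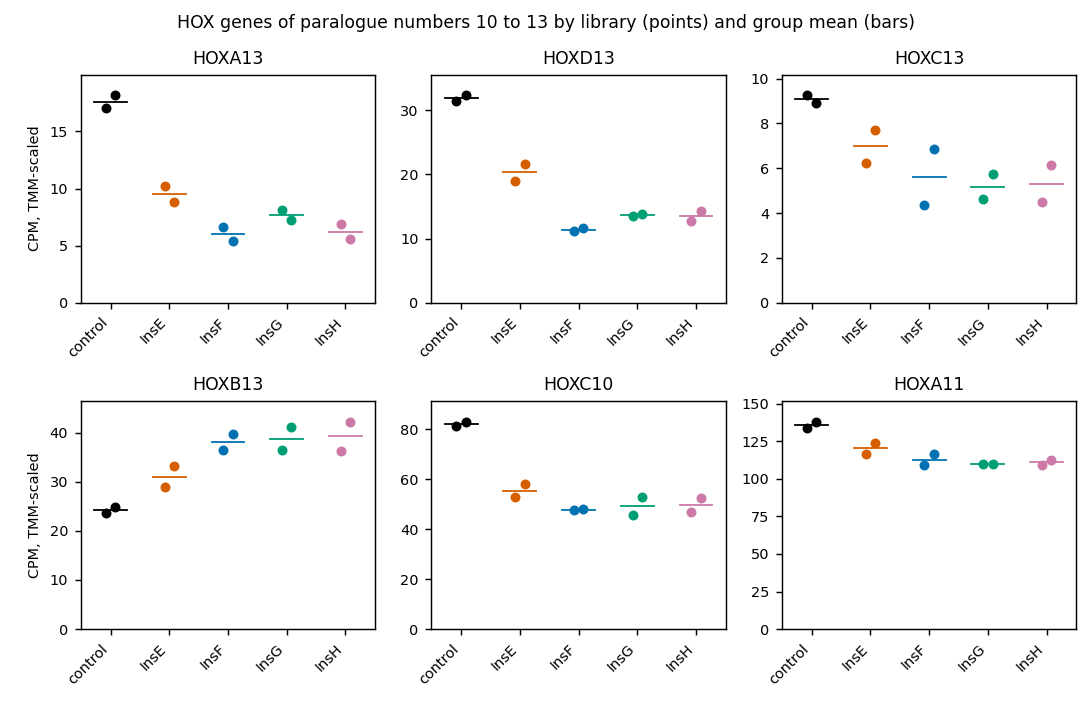
CPM of HOXA13, HOXD13, HOXC13, HOXB13, HOXC10 and HOXA11, with a point per library and a bar at each group mean, from 0 on a linear axis. In all panels except HOXB13 the 8 line points lie below both control points; for HOXB13 they lie above, from 28.97 to 42.3 CPM against 23.6 and 24.8.

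HOXC10 and HOXA11, the most abundant HOX genes, were also lower in the lines. HOXC10 (chr12:53985065-53990279, plus strand) measured 81.1 and 83.03 CPM in the control libraries, against 52.7 and 57.97 for InsE, 47.6 and 47.97 for InsF, 45.6 and 52.9 for InsG, and 46.8 and 52.6 for InsH. All line libraries lay below both controls, by much more than replicates differed. The mean log2 change was -0.71 ± 0.06 (SE; edgeR adjusted p = 5.8e-05), a 1.63-fold lower level on the count scale. The 4 lines ranged from -0.78 to -0.58, and all of these calls held under every alternative. In TPM the relative fall was smaller, from a mean of 97.9 in control to means of 67.3 to 74.5 in the lines. HOXA11 (chr7:27181510-27185223, minus strand) measured 134 and 138 CPM in the control libraries, against 117 and 124 for InsE, 109 and 116 for InsF, 109.7 and 110.2 for InsG, and 109 and 113 for InsH, which is a smaller gap without overlap. Its mean log2 change was -0.26 ± 0.04 (SE; edgeR adjusted p = 0.00209), a call that held under every alternative. The HOXA11 calls of single lines did not all hold. That of InsE was lost without control replicate 1, and those of InsF, InsG and InsH without control replicate 2. Of the 4 lines InsE gave the smallest HOXA11 change, -0.18, with an edgeR adjusted p of 0.0494, close to the threshold. Without a stated strand setting, HOXA11 reads cannot be told from those of HOXA11-AS1, which overlaps 31.1% of its exon bases; HOXA11-AS1 itself gave 0.16 ± 0.08 (edgeR adjusted p = 0.165).

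HOXD10 and HOXD11, which act with HOXD13 in the limb, were scarce, at 3.59 to 25.7 and 7.59 to 37.3 expected counts per library. They share exon bases on the same strand, 16.8% of those of HOXD10 and 21.4% of those of HOXD11, and the counts of both were not whole in all 10 libraries, so both are uncertain to the extent that reads were divided between them. HOXD10 measured 0.872 and 0.667 CPM in the control libraries, against 0.576 and 0.423 for InsE, 0.3797 and 0.336 for InsF, 0.164 and 0.358 for InsG, and 0.259 and 0.331 for InsH. HOXD11 measured 1.24 and 1.33 CPM in the control libraries, against 1.18 and 1.06 for InsE, 0.518 and 0.673 for InsF, 0.631 and 0.806 for InsG, and 0.647 and 0.663 for InsH. In CPM all line libraries lay below both controls for both genes, and InsE was the nearest to control. In TPM an InsE library of HOXD11, at 1.51, lay between the controls at 1.46 and 1.67. Mean log2 changes were -1.22 ± 0.33 for HOXD10 (SE; edgeR adjusted p = 0.0211) and -0.79 ± 0.22 for HOXD11 (0.0256). The HOXD10 call was lost without control replicate 1 (edgeR adjusted p = 0.275) or 2 (0.0906) and with limma at a pseudocount of 0.1 (0.0676), and DESeq2 gave it no adjusted p. The HOXD11 call was lost without control replicate 1 (0.153) or 2 (0.18), InsF replicate 1 (0.0534) or InsG replicate 1 (0.0544), without the expression filter (0.0624), with DESeq2 (0.3) and with limma (0.0567 and 0.0775 with pseudocounts of 1 and 0.1). HOXA10 and HOXC11 had mean changes of -0.20 ± 0.28 and -0.23 ± 0.12 and did not pass the test (edgeR adjusted p of 0.659 and 0.191).

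In the mean of the lines, the calls among the described genes with lower numbers pointed up. HOXA3 (chr7:27106184-27152581, minus strand), needed for the thymus and parathyroid, measured 0.972 and 1.03 CPM in the control libraries, against 2.79 and 1.798 for InsE, 1.97 and 2.96 for InsF, 2.41 and 2.33 for InsG, and 2.11 and 2.98 for InsH. All line libraries lay above both controls, which were close together. HOXA-AS2 and HOXA-AS3 overlap 15.4% of HOXA3 exon bases on the opposite strand, and RP1-170O19.22 and RP1-170O19.23 overlap 9.24% on the same strand. The control libraries held only 29 and 20 counts of HOXA3. Its mean log2 change of 1.27 ± 0.25 (SE; edgeR adjusted p = 0.00535), or 2.42-fold, was the largest rise among the tested HOX genes. The lines gave 1.25 to 1.32, but the adjusted p was 0.0804 without control replicate 1 and 0.0559 without control replicate 2.

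HOXA7, a trunk gene, measured 11.2 and 10.4 CPM in the control libraries, against 13.2 and 13.6 for InsE, 13.4 and 14.1 for InsF, 13.3 and 13.9 for InsG, and 13.4 and 13.4 for InsH. The gap is small but without overlap. Its mean change was 0.32 ± 0.07 (SE; edgeR adjusted p = 0.00765), with 0.31 to 0.34 in the lines; the adjusted p was 0.113 without control replicate 2, 0.104 with DESeq2 and, with limma, 0.0736 and 0.0723 for pseudocounts of 1 and 0.1. HOXA-AS3 overlaps 62.5% of HOXA7 exon bases on the opposite strand, and HOXA7 counts were not whole in 6 libraries. Without a stated strand setting, HOXA7 reads cannot be told from those of HOXA-AS3. HOXB6 measured 0.469 and 0.667 CPM in the control libraries, against 1.02 and 0.846 for InsE, 1.07 and 1.14 for InsF, 1.05 and 0.806 for InsG, and 1.38 and 0.911 for InsH. All line libraries lay above both controls in CPM, at 7.99 to 45 expected counts per library. In TPM the groups overlapped, with 0.74 and 0.98 in control and 1.02 and 0.69 in InsE. HOXB6 shares 16.6% of its exon bases with HOXB3 on the same strand, and its counts were not whole in 8 libraries. Its mean change was 0.90 ± 0.28 (edgeR adjusted p = 0.0416), and leaving out any of 7 single libraries, among them control replicate 1 (0.354) and control replicate 2 (0.107), raised the p past the threshold. The others were InsE replicate 1 (0.0753), InsF replicate 1 (0.0659) and 2 (0.0667), InsG replicate 1 (0.0827) and InsH replicate 1 (0.0755). It was also lost with DESeq2 (0.275), with limma (0.129 and 0.151 with pseudocounts of 1 and 0.1) and without the expression filter (0.0669).

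Other tested HOXB genes had no call in the mean, with positive values except for HOXB9. HOXB2, the most abundant of that cluster, measured 12.8 and 12.6 CPM in the control libraries, against 13.6 and 17.7 for InsE, 13.98 and 15.00 for InsF, 13.1 and 14.1 for InsG, and 13.8 and 14.2 for InsH. All line libraries were above both controls, but the mean change of 0.17 ± 0.09 had an edgeR adjusted p of 0.201. HOXB3 gave 0.51 ± 0.21 (0.0982), HOXB7 0.24 ± 0.12 (0.174), HOXB5 0.28 ± 0.35 (0.652) and HOXB9 -0.14 ± 0.12 (0.42). HOXA4 gave 0.85 ± 0.31 (0.0665). In HOXC, HOXC6 gave 0.17 ± 0.09 (0.212), HOXC8 -0.62 ± 0.29 (0.145), HOXC9 -0.03 ± 0.19 (0.923) and HOXC4 -0.38 ± 0.15 (0.0985).

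Some genes passed the test against control in a single line and not in the mean. HOXC4, a gene of the neck and upper trunk, averaged 2.76 ± 0.128 CPM in control, 1.37 ± 0.286 for InsE, 2.33 ± 0.126 for InsF, 2.22 ± 0.0999 for InsG, and 2.81 ± 0.248 for InsH (each SD with n = 2), and InsE gave -0.96 ± 0.21 (SE; edgeR adjusted p = 0.0103), lost without control replicate 1 (0.0738) and with DESeq2 (0.119). HOXC6 gave 0.42 ± 0.12 in InsF (0.028), lost without control replicate 1 (0.206) or 2 (0.0758), without InsF replicate 1 (0.0762) or 2 (0.119), with DESeq2 (0.211) and with limma (0.36 and 0.366). HOXD3 gave -0.64 ± 0.15 in InsG (0.0148), lost without control replicate 1 (0.11) or 2 (0.0607). HOXD4 gave -0.40 ± 0.11 in InsG (0.0319), lost without control replicate 1 (0.136) or 2 (0.143), without InsG replicate 1 (0.156) or 2 (0.0781), with DESeq2 (0.0741) and with limma (0.114 and 0.113). Genes on the same strand share 17.8% of the exon bases of HOXC4 and 15.7% of those of HOXC6. Counts were not whole in 9 libraries for HOXC4 and in 10 for HOXC6, so both are uncertain to the extent that reads were divided. A call in a single line does not show that the line differs from the others, which the next comparison tests.

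Differences between the lines were called mostly in HOXD. In the test for any difference among the 4 lines, 6 of 28 HOX genes were called, where 13.2% of all tested genes were: HOXD1, HOXD3, HOXD4, HOXD8, HOXD13 and HOXA13, so 5 of the 7 tested HOXD genes. Leaving out InsE replicate 1 reduced these 6 calls to 1, HOXD13, and leaving out InsE replicate 2 reduced them to 2. Among InsF, InsG and InsH alone no HOX gene was called by edgeR, where 0.09% of all tested genes were; 4 HOX genes had an unadjusted p under 0.05, and DESeq2 and limma called 0 as well. Replicate numbers went together in the lines, and with the replicate block in the 8 line libraries alone, a fit chosen after seeing the data, 12 HOX genes were called among the 4 lines and 5 among InsF, InsG and InsH (HOXC6, HOXD1, HOXD3, HOXD8 and HOXD13). That fit called 56.8% and 28.4% of all tested genes in these comparisons.

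InsE was compared with the mean of InsF, InsG and InsH, a contrast set because an earlier look at these data had placed InsE apart. Of the 28 HOX genes 9 were called, 6 higher and 3 lower in InsE, where 24.2% of all tested genes were called, 11.4% higher and 12.8% lower. The median over HOX genes was 0.12, and over all tested genes 0.01. In HOXD 6 of 7 were called, with a median log2 difference of 0.60. Without InsE replicate 1 the 9 calls became 3, those of HOXD3, HOXD4 and HOXD13.

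HOXD3, HOXD4, HOXD8, HOXD11 and HOXD13 were higher in InsE than in the other lines. HOXD13 differed by 0.65 ± 0.07 (SE; edgeR adjusted p = 0.000238). HOXD3, active in the neck vertebrae and hindbrain, measured 14.9 and 13.9 CPM in the control libraries, against 16.1 and 17.1 for InsE, 11.3 and 9.96 for InsF, 10.5 and 7.16 for InsG, and 12.6 and 13.8 for InsH, which put both InsE libraries above control and the 6 other line libraries below it in CPM. In TPM the InsE libraries, at 17.2 and 16.5, lay between the controls at 17.5 and 15.8. Its difference was 0.60 ± 0.12 (0.00593, edgeR adjusted). HOXD4 averaged 22.9 ± 0.253 CPM in control, 28.1 ± 1.56 for InsE, 20.7 ± 3.69 for InsF, 17.3 ± 0.0919 for InsG, and 19.8 ± 1.11 for InsH (each SD with n = 2) and differed by 0.55 ± 0.09 (0.00215). AC009336.19, a gene on the same strand, covers 62.2% of the exon bases of HOXD3 and 80.5% of those of HOXD4, so these genes are uncertain to the extent that reads were divided between them.

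HOXD8 measured 39.2 and 37.5 CPM in the control libraries, against 50.5 and 46.4 for InsE, 35.2 and 34.4 for InsF, 42.5 and 39.5 for InsG, and 40.2 and 39.1 for InsH. In CPM both InsE libraries were above every other library, whereas in TPM an InsG library at 51.8 lay between the InsE values of 57.4 and 51.5. The log2 change of InsE against control was 0.34 ± 0.07 (SE; edgeR adjusted p = 0.00719), a call lost without InsE replicate 1 (0.0832) or control replicate 2 (0.0794) and with the control libraries summed (0.0602). Against the other lines it differed by 0.34 ± 0.06 (0.00239), a call lost without InsE replicate 1 (0.0596) and with limma on TPM (0.0515 and 0.0513 with pseudocounts of 1 and 0.1). HOXD11 differed by 0.82 ± 0.25 (0.0389), and this call was lost without any single library except InsG replicate 2, with adjusted p up to 0.337 without InsE replicate 1, and with DESeq2 (0.39) and limma (0.0716 and 0.0881). HOXD10 gave 0.87 ± 0.39 and was not called (0.139).

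HOXD1, at the head end of the cluster, went the other way. It averaged 35.1 ± 0.0915 CPM in control, 27.7 ± 1.66 for InsE, 36.01 ± 3.87 for InsF, 35.5 ± 1.29 for InsG, and 40.6 ± 2.63 for InsH (each SD with n = 2). Both InsE libraries lay below every other library. InsE differed from the other lines by -0.43 ± 0.08 (SE; edgeR adjusted p = 0.0032), or 0.0662 without InsE replicate 1, and from control by -0.35 ± 0.09 (0.0205), a call lost without InsE replicate 1 (0.16), control replicate 1 (0.105) or control replicate 2 (0.103). The antisense gene HAGLR and a further transcript overlap 58.1% of HOXD1 exon bases; HAGLR differed between InsE and the other lines by -0.18 (0.041).

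**Figure D5:**
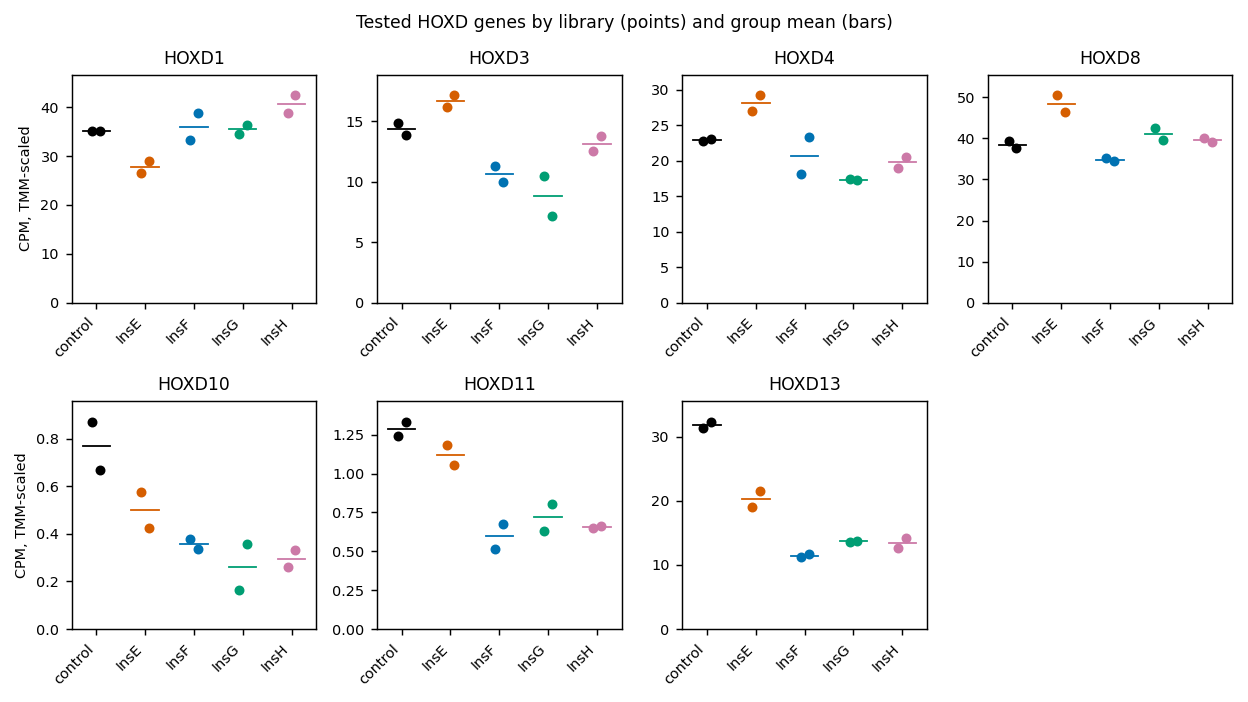
CPM of the 7 tested HOXD genes, with a point per library and a bar at each group mean, from 0 on linear axes that differ in range. The InsE points are the lowest for HOXD1 and the highest of all groups for HOXD3, HOXD4 and HOXD8, and lie between control and the other lines for HOXD11 and HOXD13.

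Outside HOXD, 3 genes were called between InsE and the other lines. HOXA13 was higher in InsE by 0.52 ± 0.12 (SE; edgeR adjusted p = 0.0104) and HOXB13 lower by 0.33, at -0.33 ± 0.09 (0.0222), so in both InsE was nearer to control. HOXC4 was lower in InsE, at -0.78 ± 0.18 (0.0134). All 3 calls were lost without InsE replicate 1 (0.188, 0.257 and 0.0539), and that of HOXC4 also without InsE replicate 2 (0.0847) and with DESeq2 (0.155). HOXA13 was further lost with limma on TPM (0.0821 and 0.0878).

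Noncoding RNA of the clusters was checked with a list of HOX-linked transcripts, of which 18 were in the files and 11 were tested. In the mean of the lines 2 were called, both higher, where 13.1% of all tested genes were called higher, and the median log2 change was 0.27 where all tested genes had 0.01. HOTAIRM1, a transcript of the HOXA cluster, measured 0.838 and 0.924 CPM in the control libraries, against 2.18 and 1.798 for InsE, 1.76 and 1.75 for InsF, 1.96 and 2.42 for InsG, and 2.24 and 2.15 for InsH. It was higher in every line library, by 1.20 ± 0.19 (SE; edgeR adjusted p = 0.00164). HOXA-AS2, which overlaps the HOXA3 region, rose by 1.65 ± 0.38 (0.0102), a call lost without control replicate 1 (0.0636) or 2 (0.112). HOTAIR, the HOXC-encoded RNA linked to silencing of HOXD, gave 0.20 ± 0.07 (0.0729).

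Genes near the clusters were listed too, not all of them directly next to a HOX gene. Of these 22 were found and 17 were tested. In the mean of the lines 6 rose and 1 fell, against 13.1% and 14.5% of all tested genes, with a median of 0.13. The list also holds KIAA1841, which does not lie near a cluster and was not called. TTLL6, a tubulin glutamylase gene next to HOXB13, measured 1.21 and 1.23 CPM in the control libraries, against 3.07 and 2.86 for InsE, 6.73 and 6.86 for InsF, 5.61 and 6.18 for InsG, and 5.48 and 5.63 for InsH. It rose by 2.05 ± 0.13 (SE; edgeR adjusted p = 6.23e-06), more than any HOX gene. SKAP2, an adaptor gene on the HOXA side, measured 11.9 and 12.01 CPM in the control libraries, against 15.4 and 14.2 for InsE, 25.1 and 24.6 for InsF, 30.6 and 30.4 for InsG, and 27.5 and 23.3 for InsH and rose by 0.96 ± 0.07 (2.26e-05). CALCOCO2, an autophagy receptor gene on the HOXB side, rose by 0.66 ± 0.06 (3.37e-05).

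PBX and MEIS cofactors, which bind DNA with HOX proteins, were 9 in the files and 8 tested, of which 2 rose and 2 fell, against 13.1% and 14.5% of all tested genes, with a median of 0.04. PBX3 measured 0.369 and 0.154 CPM in the control libraries, against 0.352 and 0.106 for InsE, 4.69 and 4.84 for InsF, 5.75 and 5.37 for InsG, and 5.004 and 4.56 for InsH. It rose by 3.12 ± 0.31 in the mean (SE; edgeR adjusted p = 9.36e-05), with 0.03 ± 0.47 in InsE (0.975). MEIS2 fell by 0.26, at -0.26 ± 0.05 (0.00454), a call lost without control replicate 1 (0.0914). MEIS1 gave 0.15 ± 0.04 (0.0237), lost without control replicate 1 (0.132) or 2 (0.252) and with DESeq2 (0.0666).

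Polycomb genes, which encode repressors of HOX genes, were called about as often as genes in general. Of 28, all tested, 3 rose and 5 fell, where 27.6% of all tested genes were called, with a median of -0.07. CBX7 rose by 0.64 ± 0.16 (SE; edgeR adjusted p = 0.0165), EZH1 by 0.44 ± 0.09 (0.00687), and PHC3 changed by -0.35 ± 0.08 (0.00972). All 3 calls were lost without control replicate 1 (0.15, 0.0888 and 0.114) or control replicate 2 (0.114, 0.0706 and 0.0839). Of 20 MLL-type and H3K27 demethylase regulators, all tested, 9 were called, all of them lower, where 14.5% of all tested genes were called lower, with a median of -0.16. KMT2D, KMT2A and KMT2C, which encode H3K4 methyltransferases, changed by -0.86 ± 0.08 (8.17e-05), -0.73 ± 0.05 (9.73e-06) and -0.60 ± 0.05 (2.3e-05). KMT2C was no longer called on the TPM scale, where limma gave -0.09 with an adjusted p of 0.661 and a pseudocount of 1.

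Of 22 genes of retinoid handling and the CDX factors, which are known inputs to HOX genes, 16 were tested, 5 rose and 4 fell, against 13.1% and 14.5% of all tested genes, with a median of 0.04. CDX2, an intestinal factor that activates HOX genes of the trunk and tail, measured 3.29 and 3.18 CPM in the control libraries, against 1.66 and 1.798 for InsE, 0.552 and 0.336 for InsF, 0.514 and 0.716 for InsG, and 0.302 and 0.5799 for InsH. It fell by 2.28, at -2.28 ± 0.22 (SE; edgeR adjusted p = 8.19e-05). RDH10, which makes retinaldehyde, rose by 1.56 ± 0.06 (5.05e-07), and CRABP2, which carries retinoic acid, changed by -1.44 ± 0.10 (1.01e-05).

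Of 12 CTCF and cohesin genes, all tested, 1 rose and 4 fell, against 13.1% and 14.5% of all tested genes, with a median of -0.10. The germline paralogue CTCFL rose by 1.06 ± 0.11 (SE; edgeR adjusted p = 0.000146). The cohesin loader NIPBL changed by -0.32 ± 0.06 (0.00289) and the cohesin regulator PDS5A by -0.23 ± 0.06 (0.0187). Without control replicate 1 the p-values were 0.0569 and 0.144, and without control replicate 2 that of PDS5A was 0.153; on the TPM scale limma gave 0.101 and 0.416.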

How the data were processed

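RNA of 10 libraries was analysed. Per the submitters' processing notes, the authors used STAR 2.5.3, RSEM 1.3.2, DESeq2 1.38.3 and hg38. The deposited expected counts are estimated counts of fragments per gene that RSEM made before deposit, not normalized between libraries, and the deposited TPM are the authors' values of the same genes corrected for length. The strand setting and the annotation release: not given in the sources used here. Between 30.2% and 34.4% of detected genes per library had counts that were not whole. A series table with 10 value columns was not used, since the names of its columns are not those of the samples.

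Counts were rounded and fitted with edgeR 4.0.16 in R 4.3.3 (quasi-likelihood, robust; TMM; minimum count 10) in a model of all 10 libraries with 5 residual degrees of freedom. P-values are two-sided and adjusted over 15554 genes. Results for HOX genes were read from that fit. DESeq2 1.42.0 and limma 3.58.1 on log2(TPM + 1) served as alternatives. The fit was also run on simulated counts, with changes set in InsE alone and 1 spread per gene shared by all groups. The simulation lacks the unequal scatter of the control and line pairs, so it cannot test the fit under that condition. The members, lists and comparisons were chosen with earlier results of these data known. Each list names up to 3 called genes with the largest mean change. HOX genes with a value in every library are called genes with the largest changes, up to 4 per cluster, and each cluster's most abundant gene; HOXD8 is both. Values of 1 gene are not reported here. Positions came from GENCODE 29, to which all 39 HOX genes matched. Library totals of 9.40 to 42.5 M limit scarce genes most.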

Additional observations from a re-analysis of the deposited data

Results flagged for a closer look

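The following genes differed among the 4 lines by the edgeR test of that difference, so their change against control depended on the line. HOX genes were HOXD13 (adjusted p = 0.00152), HOXD8 (0.00873), HOXD4 (0.0123), HOXD1 (0.0158), HOXD3 (0.0178) and HOXA13 (0.0386). The HOXA13 call was lost without control replicate 1 (0.0863) or 2 (0.0846), InsE replicate 1 (0.247) or 2 (0.0671), InsF replicate 2 (0.0728), InsG replicate 1 (0.0551) or InsH replicate 2 (0.0538), with DESeq2 (0.125) and with limma (0.225 and 0.233 with pseudocounts of 1 and 0.1). With limma the p-values were 0.103 and 0.106 for HOXD3 and 0.098 and 0.0984 for HOXD8. Without InsE replicate 1 the p-values were 0.0865 for HOXD8, 0.0796 for HOXD4, 0.16 for HOXD1 and 0.0993 for HOXD3. Without InsE replicate 2 they were 0.0749 for HOXD4, 0.0532 for HOXD1 and 0.0778 for HOXD3.

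Among the named genes of the other lists, the edgeR adjusted p of the difference among the lines was 0.000201 for PBX3, 0.000394 for CRABP2, 0.000398 for RDH10, 0.00042 for SKAP2, 0.00219 for TTLL6, 0.00606 for CALCOCO2, 0.00658 for CTCFL and 0.00899 for CDX2. In log2 units InsE differed from the mean of the other lines by -4.11 for PBX3, 1.32 for CRABP2, -0.62 for RDH10, -0.85 for SKAP2, -1.01 for TTLL6, -0.41 for CALCOCO2, -0.83 for CTCFL and 1.83 for CDX2. For RDH10, SKAP2, TTLL6, CALCOCO2, CRABP2, PBX3 and CDX2, InsE had the smallest change from control of the 4 lines. For CTCFL, InsE lay nearer to control than the mean of the other lines did.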

How the results depend on the processing

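In the comparisons that have a direction, no HOX value with a call changed direction under any alternative. The tests for any difference among lines have no direction. Of 4286 values for single HOX genes over all comparisons, 3957 kept their side of the threshold, 264 lost a call and 65 gained one. Counts of calls were less stable. DESeq2 called 5 HOX genes for InsE, 5 for InsF, 7 for InsG and 7 in the mean of the lines. On the TPM scale limma called 6, 6, 7 and 7 with a pseudocount of 1, and with a pseudocount of 0.1 it called 6, 5, 7, 5 in InsH and 6 in the mean; among the 4 lines it called 3 with either. With both control libraries summed into 1, an alternative chosen after seeing the data, the counts were 3, 4, 5 and 4 for InsE, InsF, InsG and InsH, and 5 in the mean. Leaving out each library in turn gave 4 to 11 calls for InsE and for InsF, 4 to 12 for InsG, 4 to 9 for InsH, 5 to 12 in the mean, 1 to 6 among the lines, 3 to 9 for InsE against the other lines and 0 among InsF, InsG and InsH. With a single library left, a group is assumed to vary like the others. Without its replicate 1, a line rested on its shallower library. The cause of these moves was not tested.

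Replicate numbers were not treated as pairs: differences between replicate 1 and 2 correlated at 0.0029 to 0.0434 between control and lines, and at 0.388 to 0.463 among lines. With the replicate block in the fit, calls were 13, 12, 12 and 13 for InsE, InsF, InsG and InsH, 15 in the mean, 9 among the lines and 13 for InsE against the other lines. With the replicate block in the 8 line libraries alone, added after seeing the data, calls were 12 among the lines and 5 among InsF, InsG and InsH. Cluster sums in CPM in place of TPM gave line-to-control ratios of 0.839 against 0.908 for HOXA, 0.686 against 0.762 for HOXC and 0.868 against 0.92 for HOXD. Depth limits the scarce genes, HOXD10, HOXD11 and HOXB6 among them.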
